A study of Mus musculus with 15 samples.

Results

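The comparison described here sets the genome-wide contacts of a bait at Pparg beside those of a bait at Lpin1 in one mouse cell line, 3T3-L1. Its members are 4025 windows of 500 kb on 16 autosomes, each with 50 or more HindIII sites, out of 4034 windows on those autosomes. Chromosomes 6, 10 and 12 were left out because they carry the 3 baits of the series. The assay was 4C-seq, a proximity ligation method. Chromatin was cross-linked with formaldehyde and digested with HindIII, neighbouring ends were joined, and after a further DpnII digestion and ligation the partners of the bait were amplified outward from it. The reads then name the HindIII sites that were joined to the bait. The Pparg and Lpin1 baits had 8 libraries each, 2 for each of days 0, 1, 2 and 6. Day 0 cells were confluent preadipocytes about to receive dexamethasone, 3-isobutyl-1-methylxanthine and insulin in serum-containing medium. Cells of days 1 and 2 were at an intermediate stage, and day 6 cells were labelled mature adipocytes. All groups are the same line without genetic change, and the line is a cultured model of fat cell formation, not fat tissue. The Ifng bait (8 libraries of the same days) and 1 library per bait from a B lymphocyte cell line served only as a comparison.

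Pparg encodes PPAR gamma, a nuclear receptor and the central transcription factor of adipogenesis, and Lpin1 encodes lipin 1, a phosphatidate phosphatase of triglyceride synthesis that also acts in adipocyte differentiation. Contacts between chromosomes are rare beside contacts along the bait's own chromosome. They are known to depend on where chromosomes and their active, gene-dense stretches lie in the nucleus. Mouse chromosomes carry the centromere at the low-coordinate end, called proximal here, and the other end is called distal. The most read site was common to all libraries of a bait. It lay at 115.4 Mb of chromosome 6 for Pparg, on a chromosome whose last site lies at 149.5 Mb, and at 16.6 Mb of chromosome 12 for Lpin1, where the last site lies at 121.3 Mb (mm9). The Pparg bait was thus in the distal part of its chromosome and the Lpin1 bait in the proximal part of its own.

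A site counted as captured in a library when it had at least 1 read. The captured share of a window was divided by the share over all 16 autosomes in the same library, and the result is called a multiple. A multiple of 1 is the level of that library. Captured sites made up 0.442% to 5.20% of sites in the Pparg libraries and 0.449% to 3.86% in the Lpin1 libraries. Reads on the 16 autosomes ran from 11622 to 470084 with Pparg and from 259619 to 589563 with Lpin1, and reads per captured site from 4.10 to 19.9 and from 17.2 to 89.9. The shallowest library was the second file of Pparg day 6. At the limit of 50 sites, the 3 windows of 50 to 59 sites had a mean captured share of 2.62% and the 1 window of 40 to 49 sites, which was left out, had 0%.

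Some libraries of one bait shared captured sites far more often than libraries of different baits did. The number of sites shared by 2 libraries was set against the number that their captured totals would give at random. Between the baits this quotient had a median of 2.00 over 64 pairs and a range of 1.64 to 2.67. Within Pparg, the 4 files numbered 2 shared 13 to 21.1 times the random number with each other. The 4 Pparg files numbered 1 shared 2.41 to 6.28 times, and files of different number 1.85 to 3.18 times, a range that overlaps the one between baits. Within Lpin1 the range was 4.95 to 48.1 among files numbered 2, 2.59 to 5.38 among files numbered 1 and 2.73 to 10.4 across numbers. The highest value belonged to the second files of Lpin1 days 1 and 2, which had 2938 captured sites in common, 51.8% and 42.4% of their totals. Over those common sites the log read counts of the 2 libraries correlated at -0.678, so sites with many reads in one tended to have few in the other. This was not confined to that pair. The correlation ran from -0.49 to -0.39 among Pparg files numbered 2 and from -0.56 to 0.09 in the other Lpin1 pairs. It ran from -0.43 to 0.095 among Pparg files numbered 1, from -0.045 to 0.139 across Pparg numbers and from -0.25 to 0.27 between baits. Whether a shared site was ligated in both libraries or reached one from the other cannot be told apart from these tables, so a captured site may not be an independent contact of its library. The preferred windows, the correlation between baits, the chromosomes and the chromosome ends are therefore also given with each site counted once per bait. These are given with the files numbered 1 or 2 alone as well. The windows above the level with both baits and the day interaction were not fitted by file number.

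**Figure D1:**
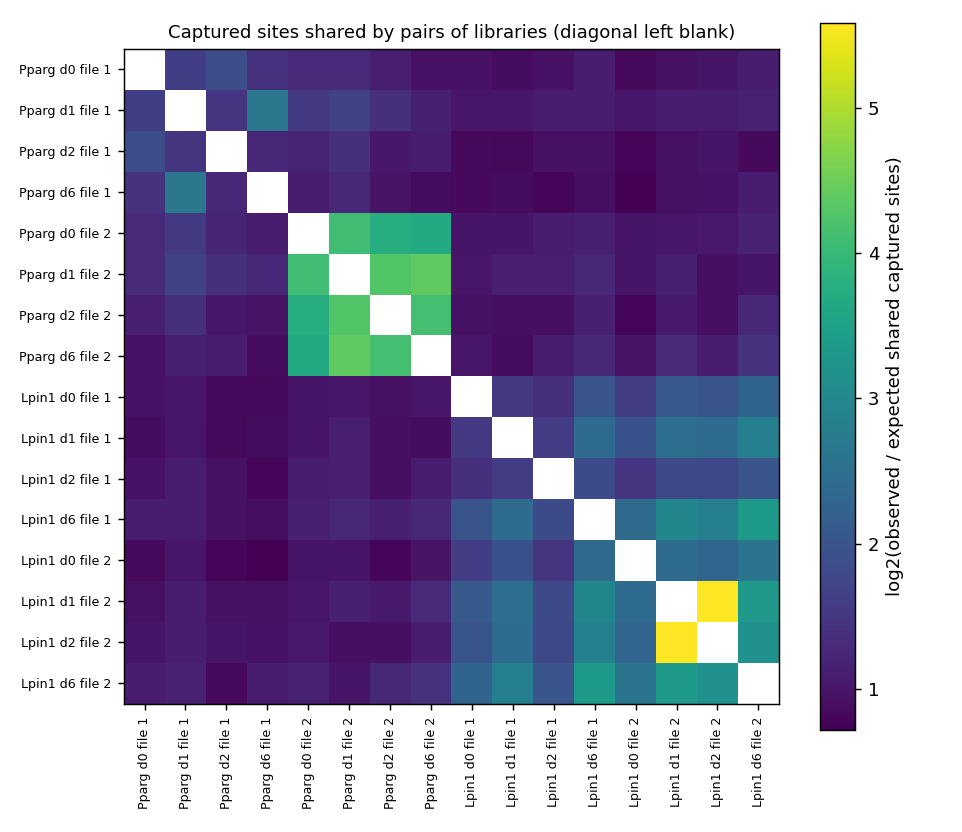
Captured sites shared by each pair of the 16 libraries, as log2 of observed over expected (colour), with Pparg libraries first and, within a bait, files numbered 1 before files numbered 2. The 4 Pparg files numbered 2 form a block of 13 to 21.1 times, and the second files of Lpin1 days 1 and 2 stand out at 48.1 times, against 1.64 to 2.67 times between baits.

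Both baits captured largely the same stretches of the genome. Windows rich in captures with Pparg were rich with Lpin1, and both profiles differed from that of Ifng. Across the 4025 windows the mean multiples of Pparg and Lpin1 had a Spearman correlation of 0.770. The correlation with Ifng was -0.236 for Pparg and -0.276 for Lpin1. Windows share libraries and depth, so these values are descriptions. Ifng libraries had 58.6% to 93.2% of reads on their most read site, against 5.83% to 61.4% with Pparg and 3.07% to 24.6% with Lpin1. Sites of a single read were 41.9% to 75.2% of captured sites with Ifng, 20.4% to 42.8% with Pparg and 14.2% to 37.4% with Lpin1. Chromosome 16 had a mean Ifng multiple of 2.72, against 0.987 with Pparg and 1.09 with Lpin1. The part of these differences in the Ifng values here and below was not tested. Both Pparg and Lpin1 had higher multiples in windows with fewer HindIII sites (Spearman correlations of -0.340 and -0.298 over windows, against 0.058 with Ifng). Between single libraries the median correlation was 0.553 over 28 Pparg pairs, 0.492 over 28 Lpin1 pairs and 0.453 over 64 pairs of different baits. Among the files numbered 1, which had more captured sites per library with either bait on every day, the medians were 0.705, 0.574 and 0.575. A Pparg and a Lpin1 library of that number thus correlated about as much as 2 such Lpin1 libraries. These files held 11270 to 33452 captured sites with Pparg and 6587 to 24811 with Lpin1. The part of this unequal depth in the correlations was not tested. The correlation of the means was 0.750 with each site counted once per bait, 0.782 in the files numbered 1 alone and 0.601 in the files numbered 2 alone.

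Of the 4025 windows, 1841 reached 3 captured sites on average over the 16 libraries and could be tested. This average runs over both baits, so a window rich with 1 bait could pass on that bait alone. That filter itself kept windows above the library level, whose median multiples were 1.55 with Pparg and 1.49 with Lpin1, against 0.758 and 0.875 over all windows. Both baits had no captured site in any library in 20 windows, and in 236 windows both mean multiples were at least 2. The number of windows of at least 2 was 616 with Pparg and 434 with Lpin1.

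Windows above the level of the library with both baits numbered 354, which is 19.2% of those tested (edgeR quasi-likelihood test with an offset, adjusted p under 0.05 for each bait). The test counts the 2 files of a sample as replicates. Separately, 805 windows (43.7%) were above with Pparg and 577 (31.3%) with Lpin1, and the shared windows are 44.0% of the Pparg list and 61.4% of the Lpin1 list. The list sizes and their order rest on single libraries. Without the first Pparg file of day 1, 2 or 6 there were 400, 553 or 302 windows above with Pparg and 576, 587 or 579 with Lpin1. Without the first Lpin1 file of day 1, 2 or 6 there were 801, 812 or 805 with Pparg and 325, 370 or 215 with Lpin1. With reads in place of captured sites there were 135 with Pparg and 53 with Lpin1, and with each site counted once per bait 583 and 317. No tested window was below the level with both baits, which the filter on low counts nearly prevents. With no filter, 1133 of 4005 windows (28.3%) were below with both baits and 378 above with both. Those low windows had median multiples of 0.274 with Pparg, 0.333 with Lpin1 and 0.992 with Ifng, so Ifng captured them at about its own level. Under the filter, with Pparg 33 windows (1.79%) were below and with Lpin1 15 windows (0.815%). The shared windows had median multiples of 2.55 with Pparg, 2.33 with Lpin1 and 0.607 with Ifng. The Ifng mean exceeded 1 in 56 of the 354 (15.8%). Over tested windows the Ifng median was 0.655, and its mean exceeded 1 in 397 of 1841 windows (21.6%). The shared windows held a median of 144 HindIII sites, against 157 over tested windows and 162 over all windows. In the B cell libraries, which did not enter the call, their median multiples were 1.61 with Pparg and 1.86 with Lpin1. Over tested windows these medians were 1.205 and 1.39, and over all windows 0.663 and 0.830. The shared windows come from the tested ones, so the tested level is the nearer background. The B cell libraries also shared captured sites with 3T3-L1 libraries of their own bait, 1.66 to 14.1 times the random number with Pparg and 2.76 to 11.1 times with Lpin1, against 1.49 to 1.95 and 1.53 to 1.82 times with libraries of the other bait. Windows that lay within 10 Mb of the distal end made up 16.4% of the shared windows, 9.67% of tested windows and 7.95% of all windows. The count was 153 with each site counted once per bait and 18 with reads in place of captured sites. It fell outside 1.5 times of its value when single libraries were left out, to 189 and 154 without the first Pparg files of days 1 and 6, and to 211, 232 and 143 without the first Lpin1 files of days 1, 2 and 6.

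Within shared windows the 2 baits captured mostly different sites. In the 354 shared windows, 34.2% of the sites were captured in at least 1 Pparg library and 23.9% in at least 1 Lpin1 library, and 9.98% with both. That is 5060 sites, or 1.21 times the number that the captured totals of each window would give at random. Over all windows the quotient was 1.26.

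The 10 shared windows with the highest multiples in the weaker of the 2 baits lay on chromosomes 2, 8, 11, 15, 17 and 19. The first was the most proximal window of chromosome 11, from 3 to 3.5 Mb, with 132 sites. Its multiples were 4.37, 5.68 and 9.01 (lowest, median, highest of 8) with Pparg and 6.28, 8.56 and 16.3 with Lpin1, and it averaged 2.97 with Ifng. In every library of both baits the window was at more than 4 times the library level, and the 2 baits overlapped. In this window Lpin1 was called higher than Pparg (mean multiples 6.28 with Pparg and 10.2 with Lpin1, edgeR adjusted p = 0.0176). The next, from 77.5 to 78 Mb of chromosome 2, had 3.79, 5.91 and 7.84 with Pparg and 4.31, 5.76 and 10.6 with Lpin1, with Ifng at 2.18. In contrast to the shared windows as a class, the 2 baits captured mostly the same sites in this chromosome 2 window. Pparg captured 47 of its sites and Lpin1 42, and 38 were captured with both, against 12.6 at random. In the chromosome 11 window 28 sites were captured with both, against 19.7 at random. Whether Ifng captured the same sites was not tested. In both windows the Ifng multiple was above its level too, so they were high with all 3 baits.

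From 46 to 46.5 Mb of chromosome 19 the multiples were 2.87, 3.95 and 11.4 with Pparg and 2.27, 4.98 and 7.72 with Lpin1. A window from 32 to 32.5 Mb of chromosome 2 had 4.18, 5.99 and 7.46 with Pparg and 2.19, 3.67 and 6.12 with Lpin1, while Ifng averaged 0.557. The chromosome 19 window averaged 1.18 with Ifng. These 2 windows were above the level in all 16 libraries, and the baits overlapped in both. The other 6 began at 152.5 Mb of chromosome 2, at 72.5 and 129 Mb of chromosome 8, at 99.5 and 102 Mb of chromosome 15 and at 80 Mb of chromosome 17. Their means ran from 3.48 to 5.26 with Pparg and from 3.45 to 4.11 with Lpin1. In 1 of them, at 99.5 Mb of chromosome 15, the second Pparg file of day 6 had no captured site.

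Shared windows were densest on chromosome 19. Of its 117 windows, 40 were above the level with both baits, 34.2% of them, and the next highest share was 14.3% on chromosome 11. Only tested windows could be called, and more of chromosome 19 was tested. Over tested windows it was 40 of 89 there, 27 of 93 on chromosome 16, 26 of 91 on chromosome 17 and 34 of 138 on chromosome 11. The longest run, picked after its values were seen, was 8 adjoining windows from 43.5 to 47.5 Mb of chromosome 19, with mean multiples of 3.44 with Pparg, 3.14 with Lpin1 and 0.958 with Ifng. A run of 6 windows lay at 3.5 to 6.5 Mb of the same chromosome, with 3.95 with Pparg and 3.10 with Lpin1. Runs of 5 windows lay at 31 to 33.5 Mb of chromosome 2, where the 2 baits averaged 3.55 and 2.65, and at 98.5 to 101 Mb of chromosome 15, where they averaged 3.89 and 2.97.

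**Figure D2:**
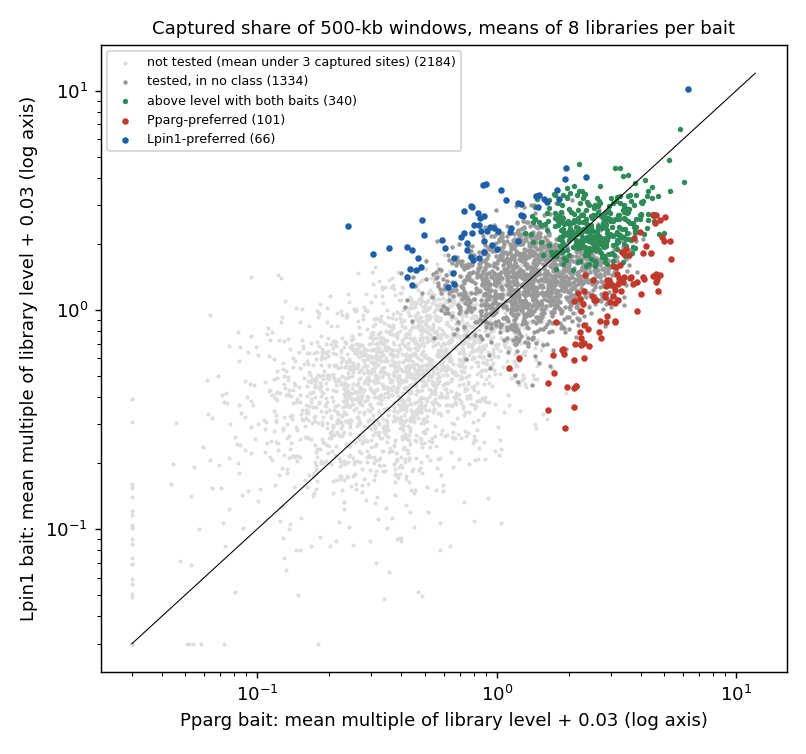
Mean multiple of 8 Pparg libraries (x axis) against that of 8 Lpin1 libraries (y axis) for each of the 4025 windows, on log axes after adding 0.03, with the line of equal values. Most windows lie along the line. Of the 354 windows above the level with both baits, 340 are drawn as such and 14 are drawn by their preferred bait.

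Some windows were captured more by one bait than by the other, with median ratios of mean multiples of 2.62 in either direction among those called. At the planned setting 167 of 1841 tested windows (9.07%) differed between the baits by the edgeR quasi-likelihood test at an adjusted p under 0.05. Of these, 101 were higher with Pparg (5.49%) and 66 higher with Lpin1 (3.59%). The test counts the 2 files of a sample as replicates, so its p-values cover only the spread between files. For windows, no test with the files of a sample averaged was run. At an unadjusted p under 0.05 there were 446 (24.2%). The number of calls depended strongly on the setting. It was 1 with each site counted once per bait, 1 with reads in place of captured sites, 3 with DESeq2, 58 with sites captured at 2 or more reads, 142 with limma and 205 without TMM scaling. Without the first Pparg file of day 1 it was 56, without that of day 6 it was 90, and without the first Lpin1 file of day 6 it was 82. Which bait had more preferred windows also depended on the setting. There were 24 higher with Pparg and 34 with Lpin1 at 2 or more reads, 106 and 99 without TMM scaling, and 0 and 3 with DESeq2. Without the first Pparg file of day 1 there were 25 and 31, without that of day 6 there were 20 and 70, and without the first Lpin1 file of day 6 there were 62 and 20. Without the second Lpin1 file of day 1 there were 56 and 91. With no filter on low counts, 138 of 4005 windows were called, 100 higher with Pparg and 38 with Lpin1. Of the 167 windows, 119 were among them. A list of preferred windows is therefore tentative. With each site counted once per bait, which uses the same captures again, 140 of the 167 windows could still be tested, and 100 of them had an unadjusted p under 0.05. The fit on the files numbered 1 called 131 windows. Of these, 116 (88.5%) had the same direction in the files numbered 2, against 66.6% of all tested windows. Their median log2 difference went from 1.36 to 0.687 where Pparg was higher, and from -1.46 to -0.960 where Lpin1 was higher. In reverse, the files numbered 2 called 5 windows, of which 4 kept their direction. Both sets of files come from the same samples and share captured sites, so they are not independent. On a single day, with 2 libraries a bait, no window passed by edgeR, and 195 (10.6%), 245 (13.3%), 148 (8.04%) and 161 (8.75%) windows had an unadjusted p under 0.05 on days 0, 1, 2 and 6.

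Most preferred windows were above the level with the preferred bait and not called either way with the other. Few were called in opposite directions. Of the 101 Pparg-preferred windows, 76 were above the level with Pparg and not called either way with Lpin1, 13 were above with both, and 6 were above with Pparg and below with Lpin1. Of the 66 Lpin1-preferred windows, 46 were above with Lpin1 and not called either way with Pparg. In this class 1 was above with both, and 6 were above with Lpin1 and below with Pparg. A further 7 were below with Pparg and not called with Lpin1, and 4 Pparg-preferred windows were below with Lpin1 and not called with Pparg. Pparg-preferred windows had median multiples of 2.93 with Pparg and 1.16 with Lpin1. Lpin1-preferred windows had 0.818 with Pparg and 2.27 with Lpin1. Ifng was at 0.644 and 0.628 in the 2 classes, near its median of 0.655 over tested windows.

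All 8 libraries of Pparg lay above all 8 of Lpin1 in 14 tested windows (0.76%), of which 13 were also called. The reverse held in 11 windows (0.598%), of which 10 were called. The 10 Pparg-preferred windows named by this rule had ratios of mean multiples from 2.77 to 5.04. The window from 136 to 136.5 Mb of chromosome 3 had multiples of 1.70, 2.04 and 2.66 with Pparg and 0, 0.464 and 1.23 with Lpin1, a ratio of 5.01 (edgeR adjusted p = 0.000592). The lowest Pparg library was above the highest Lpin1 library, and 3 Lpin1 libraries had no captured site. The window passed the filter through Pparg, with 63 captured sites summed over the Pparg libraries and 11 over the Lpin1 libraries.

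A window at 185.5 to 186 Mb of chromosome 1 had 3.25, 3.96 and 9.0 with Pparg and 0.527, 1.20 and 2.53 with Lpin1, a ratio of 3.45 (edgeR adjusted p = 0.000592). Its highest value came from the second Pparg file of day 6, the shallowest library, and the other 7 reached 5.63. At 101 to 101.5 Mb of chromosome 15 the multiples were 3.40, 4.40 and 5.91 with Pparg and 0, 1.51 and 2.49 with Lpin1, a ratio of 3.20 (edgeR adjusted p = 0.00313). That window adjoins the shared run that ends at 101 Mb, so a shared stretch passed there directly into one that Pparg captured more. The others began at 158.5 and 166.5 Mb of chromosome 1, at 117 Mb of chromosome 2, at 146 Mb of chromosome 3, at 26 and 28.5 Mb of chromosome 13 and at 60 Mb of chromosome 19.

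Pparg-preferred windows formed runs of up to 4. One run, from 117 to 119 Mb of chromosome 2, averaged 3.38 with Pparg and 1.29 with Lpin1. Another, from 25.5 to 27.5 Mb of chromosome 13, averaged 2.10 and 0.562, and 3 more called windows followed it from 28.5 to 30 Mb with 3.01 and 0.940. These runs were picked after their values were seen. They hold 3 of the 10 named windows.

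The 10 named Lpin1-preferred windows had ratios, given as Lpin1 over Pparg, from 2.29 to 11.4. The window from 25 to 25.5 Mb of chromosome 7 had multiples of 0, 0 and 0.623 with Pparg and 0.866, 2.68 and 3.75 with Lpin1 (edgeR adjusted p = 0.000101). Its ratio of 11.4 rests on 9 captured sites summed over the Pparg libraries and 45 over the Lpin1 libraries, and 5 Pparg libraries had none. This window passed the filter on captured sites through the Lpin1 libraries. With each site counted once per bait this window fell under the filter. From 21.5 to 22 Mb of chromosome 17 the multiples were 0, 0.180 and 1.19 with Pparg and 1.75, 2.54 and 4.00 with Lpin1 (edgeR adjusted p = 0.00021). It was the single window called with each site counted once per bait (edgeR adjusted p = 0.0174). Its captured sites summed to 19 with Pparg and 56 with Lpin1, so it too passed the filter through Lpin1.

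The most proximal window of chromosome 17, from 3 to 3.5 Mb, had 0, 1.01 and 1.43 with Pparg and 2.57, 3.75 and 4.88 with Lpin1, a Lpin1 over Pparg ratio of 4.28 (edgeR adjusted p = 0.00213). A further one began at 5 Mb of the same chromosome. In both, Pparg had medians of 1.01 and 0.579, and Lpin1 was above its level in all 8 libraries. The remaining named windows began at 7 Mb of chromosome 9, 29.5 Mb of chromosome 11, 25.5 and 88.5 Mb of chromosome 15, 11 Mb of chromosome 16 and 20.5 Mb of chromosome 19. Of the 66 Lpin1-preferred windows, 14 lay on chromosome 7, among them runs of 3 at 25 to 26.5 Mb, with means of 0.554 with Pparg and 2.71 with Lpin1, and at 30.5 to 32 Mb, with 1.12 and 2.46.

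**Figure D3:**
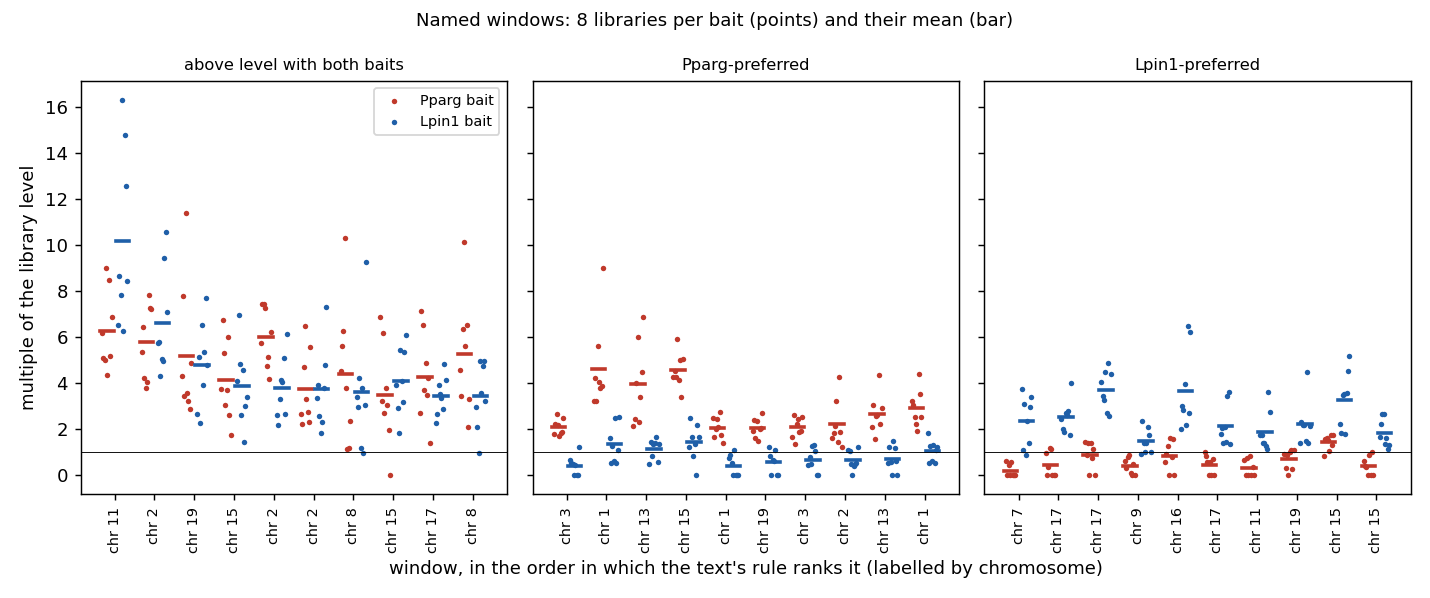
Multiples of the library level (y axis) in the named windows (x axis, labelled by chromosome), for the 8 Pparg libraries and the 8 Lpin1 libraries of each window (points) and their means (bars). The baits overlap in the 10 shared windows and do not overlap in the 10 windows preferred by each bait, which is how those were chosen.

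The B cell libraries, 1 per bait, were read in the same preferred windows. In 67 of the 101 Pparg-preferred windows (66.3%) the Pparg library of B cells had the higher multiple, against 45.5% of all tested windows. In 57 of the 66 Lpin1-preferred windows (86.4%) the Lpin1 library of B cells was higher, against 54.3% of all tested windows. These libraries have no replicates and share captured sites with 3T3-L1 libraries of their bait, as given above, and the part of that sharing was not tested.

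No window passed the edgeR interaction test of the bait difference at day 6 against day 0 at an adjusted p under 0.05, and 119 windows (6.46%) had an unadjusted p under 0.05. DESeq2 called 0 as well, with 35 at an unadjusted p under 0.05. The smallest p belonged to the window from 157.5 to 158 Mb of chromosome 2, which averaged 2.59 with Pparg and 0 with Lpin1 on day 6, and 1.99 with Pparg and 2.50 with Lpin1 on day 0 (edgeR adjusted p = 0.586). In the opposite direction it was the window from 61 to 61.5 Mb of chromosome 11, with 0.198 with Pparg and 3.24 with Lpin1 on day 6, and 2.87 and 1.02 on day 0 (edgeR adjusted p = 0.586). Neither passed, and each mean is of 2 libraries with few captured sites. The other 4 windows named by the rule, at 114.5 Mb of chromosome 2, 66.5 Mb of chromosome 8, 5.5 Mb of chromosome 13 and 58 Mb of chromosome 4, had the same adjusted p.

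Whole chromosomes also differed between the baits. The captured share of a chromosome, as a multiple of its library's level, was set against the bait in 16 two-sided exact permutation tests of 8 against 8 libraries. With each file counted as a replicate, the adjusted p was under 0.05 for 11 of 16 chromosomes (68.8%). Pparg was higher on chromosomes 1, 2, 3, 13 and 14, and Lpin1 was higher on chromosomes 7, 15, 16, 17, 18 and 19. Chromosome 19 had the highest multiples with both baits, 1.51 ± 0.12 with Pparg and 1.90 ± 0.070 with Lpin1 (SD, n = 8 each, exact permutation p = 0.000155, the smallest that 8 against 8 libraries allow, adjusted p = 0.00249). Its values were 1.35, 1.47 and 1.72 with Pparg and 1.78, 1.91 and 2.00 with Lpin1, so the baits did not overlap.

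Chromosome 15 had 0.984, 1.05 and 1.16 with Pparg and 1.16, 1.27 and 1.29 with Lpin1. The means were 1.06 ± 0.066 and 1.25 ± 0.045 (SD, n = 8 each, exact permutation test, adjusted p = 0.00249), and only the top Pparg and the bottom Lpin1 library met. Chromosome 13 went the other way, with 1.00, 1.08 and 1.15 with Pparg and 0.848, 0.908 and 1.04 with Lpin1 (means 1.08 ± 0.053 and 0.915 ± 0.056, SD, n = 8 each, exact permutation test, adjusted p = 0.00249). The sign of the difference was the same on every day for 10 of the 11 chromosomes, and on 3 of the 4 days for chromosome 17. These chromosomes were called on the same libraries, which partly sets that agreement. Chromosome 9, which was not called, also kept its sign on every day. Chromosomes 4, 5, 8, 9 and 11 did not pass.

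Fewer chromosomes passed in other settings, 7 with each site counted once per bait and 5 with reads in place of captured sites. The tests above count each file as a replicate, although the 2 files of a day belong to 1 sample. With the files of a sample averaged, 4 samples against 4, 7 of the 11 chromosomes had an exact permutation p of 0.0286, the smallest that design allows, and 0 passed after adjustment (smallest adjusted p = 0.0653). In the files numbered 1 alone, and in the files numbered 2 alone, 0 passed after adjustment as well. All 11 had the same sign of difference in the files numbered 1 as in the files numbered 2. They were called on these same files, which partly sets that agreement. Of all 16 chromosomes, 13 in the files numbered 1 and 15 in the files numbered 2 had the sign of the main comparison. The difference of Pparg minus Lpin1 was higher on longer chromosomes, with a Spearman correlation of 0.620 over the 16. Protein-coding genes per 1000 HindIII sites, counted per chromosome from the RefSeq table of a later assembly (GRCm38.p6), correlated with the multiple at 0.444 for Pparg, 0.529 for Lpin1 and 0.165 for Ifng over the same 16 chromosomes. These are descriptions over chromosomes that share their libraries.

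**Figure D4:**
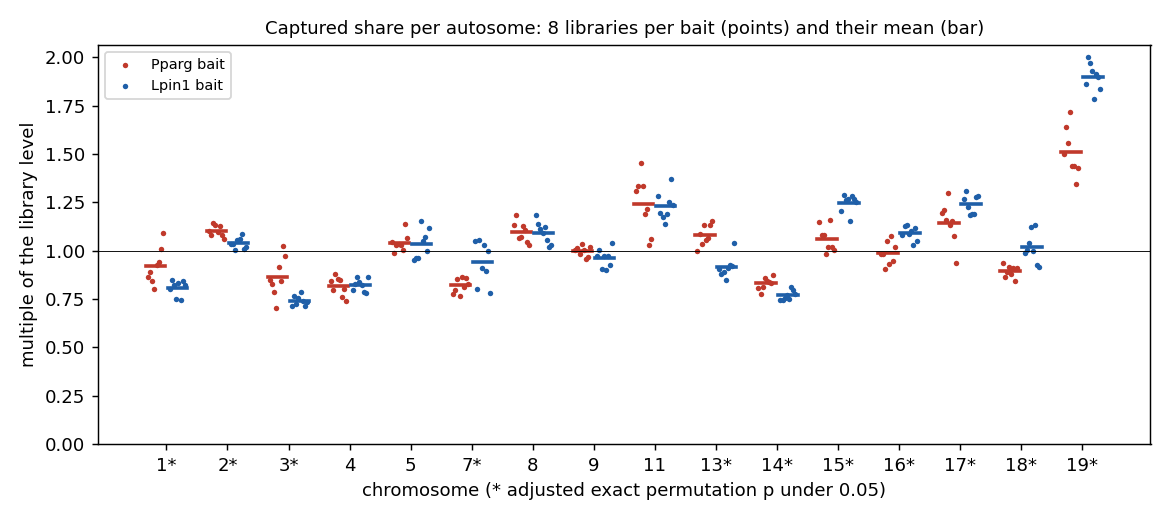
Captured share of each of the 16 autosomes as a multiple of the library level (y axis, from 0), for 8 Pparg libraries (left in each pair) and 8 Lpin1 libraries (points) with their means (bars). Chromosome 19 is highest with both baits, at 1.51 with Pparg and 1.90 with Lpin1. The 11 chromosomes with an asterisk had an adjusted exact permutation p under 0.05 with each file counted as a replicate.

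The baits also differed by position along the chromosome. Pparg captured less than its level near the proximal ends of other chromosomes and more near the distal ends, whereas Lpin1 varied less. This comparison was chosen after the preferred windows had been seen. In the proximal 10 Mb of the 16 autosomes, pooled, the multiples were 0.621, 0.755 and 0.814 with Pparg and 1.02, 1.09 and 1.16 with Lpin1. The means were 0.734 ± 0.071 and 1.09 ± 0.043 (SD, n = 8 each), a difference of -0.352 with an exact permutation p of 0.000155, the smallest possible. All Lpin1 libraries lay above all Pparg libraries. For single chromosomes, the share of the zone was divided by the share of that same chromosome. On this measure Lpin1 was higher on 15 of the 16 chromosomes. In the distal 10 Mb the multiples were 1.32, 1.46 and 1.61 with Pparg and 1.15, 1.19 and 1.28 with Lpin1. The means were 1.46 ± 0.080 and 1.20 ± 0.047 (SD, n = 8 each), a difference of 0.261 with the same exact permutation p. Again the baits did not overlap. On the measure within each chromosome, Pparg was higher on 11 of the 16 chromosomes.

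Both differences had the same sign on every day. The proximal difference was -0.297, -0.389, -0.283 and -0.440 on days 0, 1, 2 and 6, and the distal one was 0.170, 0.362, 0.223 and 0.289. With each site counted once per bait they were -0.322 and 0.230. In the files numbered 1 alone they were -0.287 and 0.265, and in the files numbered 2 alone -0.418 and 0.257. With the 2 files of a sample averaged, 4 samples against 4, the exact permutation p was 0.0286 for both zones, the smallest that design allows. Since the zones were chosen on these libraries, these p-values are not independent evidence.

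Along the chromosome the change was not even. In bins reached by at least 4 chromosomes, the Pparg multiple was lowest between 10 and 20 Mb from the first window, at 0.632 ± 0.053, was already 1.10 ± 0.069 between 20 and 30 Mb, and was highest between 130 and 140 Mb, at 1.35 ± 0.092 (SD, n = 8 each). The Lpin1 multiple in these 3 bins was 0.920 ± 0.052, 1.15 ± 0.042 and 1.06 ± 0.018. The first 2 of the bins pool 16 chromosomes and the third pools 6. The single B cell libraries ran further apart. Their multiples in the proximal 10 Mb were 0.507 with Pparg and 1.31 with Lpin1, and in the distal 10 Mb 1.70 with Pparg and 0.960 with Lpin1. Ifng in 3T3-L1, whose bait lies at 117.9 Mb of a chromosome with its last site at 130 Mb, had 0.956 ± 0.095 in the proximal and 1.38 ± 0.077 in the distal zone (SD, n = 8). Preferred windows followed the same division, which they had prompted. Of the Pparg-preferred windows 2.97% were in the proximal 10 Mb and 12.9% in the distal 10 Mb, against 27.3% and 1.52% of the Lpin1-preferred windows. Each zone held 7.95% of all windows, and the proximal and distal zones held 7.12% and 9.67% of tested windows. A bait's own position along its chromosome and its other properties cannot be told apart with 1 bait per position.

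**Figure D5:**
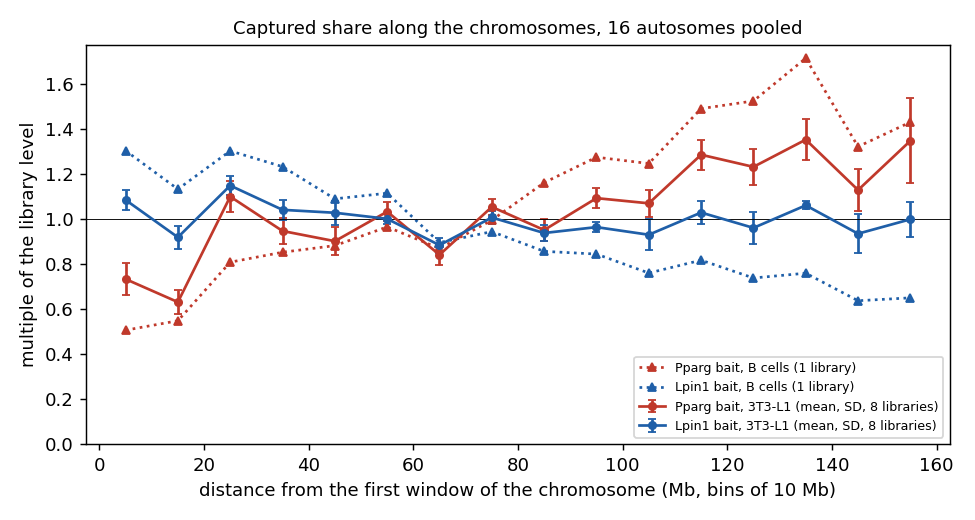
Multiple of the library level (y axis, from 0) by distance from the first window of the chromosome in bins of 10 Mb (x axis), pooled over the autosomes that reach each bin and shown for bins reached by at least 4. Circles with bars are means and SD of 8 libraries in 3T3-L1, and triangles are single B cell libraries. Pparg lies below Lpin1 in every bin up to 50 Mb and between 60 and 70 Mb, and above it in the other bins shown. Later bins pool only the longer chromosomes, so chromosome and position are mixed there.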

How the data were processed

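The authors deposited, per 3T3-L1 sample, 2 tables of counts, which are whole reads at each HindIII site with no normalization. Bowtie (no version) and mm9 appear in the submitters' processing notes; read filters and duplicate removal are not given in the sources used here. Nothing in the labels says that the 2 files of a sample come from different cultures, and p-values cover only the spread between files, which may be technical. Captured sites were summed per window and tested with edgeR 4.0.16 (limma 3.58.1, R 4.3.3). Settings were quasi-likelihood, robust, TMM, bait-by-day groups and Benjamini-Hochberg adjustment. The preference test was run on simulated counts drawn independently for each library, and it recovered 27% of 2-fold and 82% of 3-fold differences. The simulation had no sites shared between libraries, so it cannot tell how the test behaves under the sharing seen here. Windows needed a mean of 3 captured sites. Chromosomes were compared by exact permutation in SciPy 1.17.1. Alternatives were DESeq2 1.42.0, limma, window size, filters, 2 reads per captured site, thinning and leaving out libraries. Named windows were the 10 shared ones with the highest lower bait mean, up to 10 per direction by p among those called with non-overlapping libraries, and up to 3 per direction for the interaction. Windows and lists were chosen with earlier results of these data known. No mm9 annotation was used, so windows carry no gene names; genes per chromosome came from RefSeq (GRCm38.p6). PCR reads are not independent molecules.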

Additional observations from a re-analysis of the deposited data

Results flagged for a closer look

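In 5 of 98 groups of 8 libraries, 1 library lay far from the other 7, and chance alone gives about 1 in 20. The second Pparg file of day 6 reached a multiple of 9.0 in the window from 185.5 to 186 Mb of chromosome 1, where the other Pparg libraries ran from 3.25 to 5.63. The second Lpin1 file of day 6 reached 1.04 on chromosome 13, against 0.848 to 0.924 in the others. The same library reached 9.27 in the window from 72.5 to 73 Mb of chromosome 8, against 0.967 to 4.23, and 4.0 in the window from 21.5 to 22 Mb of chromosome 17, against 1.75 to 2.78. The second Lpin1 file of day 2 reached 4.51 in the window from 20.5 to 21 Mb of chromosome 19, against 1.39 to 2.32. The day 6 files concerned are the libraries with the fewest captured sites of their bait, 2838 for Pparg and 2888 for Lpin1. The part of depth in these values was not tested.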

How the results depend on the processing

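The count of preferred windows, 167, moved most: 58 with 2 or more reads per captured site, 1 with reads, 20 in windows of 200 kb, 313 in windows of 1 Mb, 4 of 20 windows tested with a mean of 10 captured sites, 7 of 95 after thinning, 3 with DESeq2, 1 with each site counted once per bait, 5 in files numbered 2 alone, 0 on each single day, and 56 to 191 with 1 library left out. The count above the level with both baits, 354, was 18 with reads, 232 in windows of 200 kb, 19 with a mean of 10, 57 after thinning, 153 with each site counted once and 143 to 345 with 1 library left out. Fewer windows were tested under the mean of 10, thinning and 200 kb; for the rest the cause was not tested. The correlation of the profiles was 0.645 in windows of 200 kb and 0.601 in files numbered 2 alone, and 0.754 to 0.782 with 1 library left out. The count of 11 chromosomes was 5 with reads, 7 with each site counted once, 0 in files numbered 1 or 2 alone, 0 with the 2 files of a sample averaged and 10 to 11 with 1 library left out. The day interaction gave 0 calls in every setting run. The proximal difference was -0.364 to -0.336 and the distal one 0.240 to 0.280 with 1 library left out, and zones of 5 and 20 Mb gave -0.445 and -0.321, and 0.312 and 0.257. File numbers did not pair the samples (correlations of deviations between baits 0.018, 0.001, 0.026 and -0.017 on days 0, 1, 2 and 6); with them as a replicate block the preferred count was 183, the shared count 339 and the interaction count 0. Counting each site once, files of 1 number alone, averaging files and the end zones were chosen after the data were seen. Depth limits the tests to 1841 of 4025 windows.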
